A study of Saccharomyces cerevisiae with 6 samples.

Results

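The genes described are those of the proteins of the small (40S) cytosolic ribosomal subunit of budding yeast, named RPS0A to RPS31, chosen by their systematic names. Of 56 such genes, 35 had rows in the table of 3′ ends, with 87 clusters of 3′ ends and 202414 reads between them, out of 13565 clusters and 4014 genes in all. The table lists genes with 2 or more clusters. The other 21 genes (RPS2, RPS3, RPS4B, RPS6B, RPS7A, RPS9B, RPS10A, RPS10B, RPS11A, RPS12, RPS13, RPS16B, RPS18A, RPS21A, RPS22B, RPS26A, RPS26B, RPS27B, RPS28B, RPS29A and RPS31) were not analysed here. Polyadenylated RNA was taken from Saccharomyces cerevisiae in mid-log growth, in 3 libraries of a strain with JHD2 deleted (deletion replicates 1, 2 and 3) and 3 libraries of wild type. JHD2 encodes a histone H3 lysine demethylase, and the series concerns 3′ end choice in its absence. No other allele, agent or condition is labelled for either strain. The assay was 3′READS, where a read marks the place at which a transcript was cleaved and given its poly(A) tail. The labels do not say whether replicates were separate cultures, so a p-value here reflects how far these libraries vary, possibly for technical reasons alone.

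The 40S subunit decodes mRNA. Its head and its body with the platform enclose the mRNA channel, and each of its proteins is present once per subunit. Most of these proteins are encoded by a pair of genes left from an ancient genome duplication, called A and B here, whose proteins are nearly the same. Ribosomal protein genes are among the most transcribed genes of growing yeast, many carry an intron, and their transcription depends on Rap1, Fhl1 and Ifh1 and on the TORC1 pathway. A yeast transcript ends where the cleavage and polyadenylation machinery cuts it, guided by an efficiency element rich in TA, a positioning element rich in A and T-rich stretches near the cut.

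The table held 380332 to 480847 reads per deletion library and 233749 to 368419 per wild-type library. Since genes with a single cluster are not in it, these totals are not library depths. JHD2 itself had 0 clusters in the table, so its deletion was not checked from its own reads. Wild-type replicate 2 stood apart: its levels across genes correlated with those of its own group at 0.940 on average, against 0.950 to 0.971 for the other 5 libraries. The small-subunit genes took 9.28, 9.53 and 9.20% of the reads in deletion replicates 1, 2 and 3, against 9.58, 8.91 and 9.52% in wild-type replicates 1, 2 and 3. The lowest share was that of wild-type replicate 2, and the ranges of the strains overlapped.

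Paralogs with the same or nearly the same protein ended their transcripts in unlike sequence. Both genes were in the table for 10 of 24 pairs, 1 gene for 12 pairs and neither for 2. Across the 10 pairs, translations of the annotated coding regions were 94.8 to 100% identical (median 99.3%) and coding sequences 90.3 to 98.2% (median 95.2%). The 100 nt before the main 3′ end, the cluster with the most reads, were 45.1 to 55.6% identical after alignment (median 50.5%). Aligning A and B genes of different pairs in the same way gave a median of 50.0% (range 37.5 to 59.1%, n = 90 combinations). RPS23, RPS24 and RPS30, 3 pairs with identical proteins, are shown by the 30 nt that end at the main 3′ end, written as DNA of the sense strand from the RefSeq copy of the sacCer3 assembly. Capitals mark the hexamers TATATA or TACATA or TATGTA or TACGTA or AATAAA, and a window without capitals holds none of them.
RPS23A main end, 174 nt past the stop codon, chrVII:727875-727904, plus strand: atagaaaaaaacaacataatttgcacttta
RPS23B main end, 105 nt past the stop codon, chrXVI:795843-795872, plus strand: tcaaaatcatcaaacatcaagcttatttaa
RPS24A main end, 128 nt past the stop codon, chrV:307295-307324, plus strand: ttttaagagatccgtggattcatttcgtaa
RPS24B main end, 192 nt past the stop codon, chrIX:231361-231390, minus strand: tataaagcaaaaacctcaaaacttcaaaaa
RPS30A main end, 189 nt past the stop codon, chrXII:712348-712377, minus strand: taactataaattatttctttaggactttaa
RPS30B main end, 113 nt past the stop codon, chrXV:678078-678107, minus strand: tacatgggtttttgattcgaactgctaaaa
None of these 6 windows holds one of the 5 hexamers. The main ends of paralogs lay a median of 72.5 nt apart when measured from their stop codons. The smallest distance was 12 nt in RPS14, whose main ends lay at 103 nt for RPS14A and 91 nt for RPS14B. The A gene had the later main end in 5 pairs and the earlier one in 5.

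Small-subunit transcripts ended close to one another within a gene. The main end lay 59 to 295 nt past the stop codon, with a median of 138 nt, and 83 of the 87 clusters lay past the stop codon. It was earliest in RPS19A (YOL121C), whose protein sits in the head, and latest in RPS20 (YHL015W), also of the head. Of the 35 genes, 22 had 2 clusters, 10 had 3, 2 had 4 and 1 had 5. Thus 62.9% had 2 clusters, against 31.2% of all 4013 annotated genes of the table and 50.0% of the 702 genes with 100 or more reads per library. Among 44 large-subunit ribosomal protein genes the percentage was 61.4%, near that of the small subunit. Neighbouring clusters past the stop codon were a median of 41 nt apart (48 distances, 64.6% of them 50 nt or less), against 50 nt and 50.3% over all genes. Taken per gene over all its clusters, the median spacing was 42 nt in small-subunit genes and 42.5 nt in large-subunit genes. Clusters nearer than 24 nt were merged by the submitters, so smaller distances could hardly appear. The main cluster held a median of 78.5% of a gene's reads (33.6 to 95.3%), and was the nearest to the stop codon in 18 genes, the farthest in 11 and in between in 6. It was the same cluster in all 6 libraries in 33 of 35 genes, the exceptions being RPS1A and RPS1B.

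**Figure D1:**
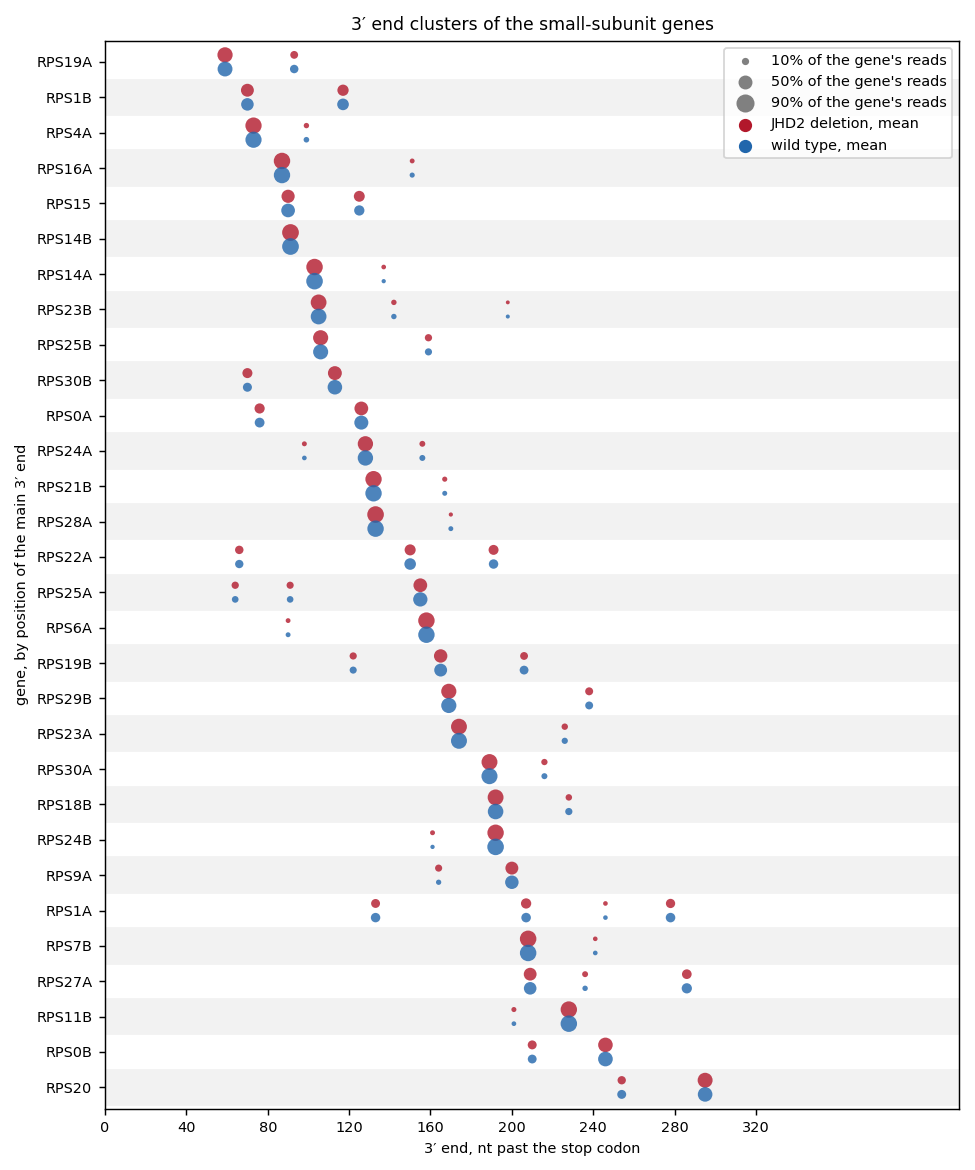
Position of each 3′ end cluster in nt past the stop codon (x axis) for 30 of the 35 genes, ordered by their main end, with circle area giving the mean share of the gene's reads in 3 JHD2 deletion libraries (red, upper) and 3 wild-type libraries (blue, lower). Main ends run from 59 nt in RPS19A to 295 nt in RPS20, and shares of the strains differ by less than 5 points in 81 of 86 tested clusters. The clusters inside coding regions and the RPS25B cluster at 781 nt are not drawn.

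RPS1A was among the genes with the most clusters and spread its ends over 145 nt. RPS1A, for a protein of the platform, had ends at 133, 207, 246 and 278 nt. The RPS1A end at 207 nt held 34.6, 40.6 and 33.1% in the deletion libraries, against 31.9, 27.2 and 34.5% in the wild-type libraries. The end at 278 nt held 28.8, 27.6 and 31.7% in the deletion libraries, against 31.0, 34.8 and 27.5% in the wild-type libraries, so that no single end held a majority in any library. RPS22A, a body protein, divided its reads among ends at 66, 150 and 191 nt, its end at 150 nt holding 41.7 ± 4.30% in the deletion and 45.9 ± 10.0% in wild type (SD, n = 3 each). Wild-type replicate 2 was the lowest of the 6 libraries at the RPS22A end at 66 nt, which held 24.5, 21.3 and 27.3% in the deletion libraries, against 32.2, 13.0 and 26.0% in the wild-type libraries.

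A few small-subunit clusters lay in places where another source of reads cannot be told apart. Clusters in coding exons belonged to RPS9A (3 clusters) and RPS14B (1 cluster), with 165 of the 202414 reads. RPS9A (YPL081W), for a body protein that lines the mRNA entry, had 48.0 reads per library on average, and 74.7% of them lay past its stop codon. The sequence before one of its coding clusters had a stretch of 98 nt with 93.9% identity in RPS9B, so those reads are uncertain. Upstream of the RPS19A main end, a stretch of 41 nt was identical to a stretch inside the coding region of RPS19B. That end itself lay 59 nt past the stop codon, and the 100 nt before the main ends of RPS19A and RPS19B were 49.1% identical. For RPS20 both ends had stretches of low complexity that occur elsewhere. The farthest cluster of RPS25B, 781 nt past the stop codon, lay inside the small nucleolar RNA gene SNR55 on the same strand. It had 20, 16 and 30 reads in deletion replicates 1, 2 and 3, against 34, 12 and 17 reads in wild-type replicates 1, 2 and 3.

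Sequence elements before the main ends were counted in the 100 nt that end there. Where the main end lay less than 100 nt past the stop codon, as in RPS19A at 59 nt, the window included coding sequence. One or more of TATATA or TACATA or TATGTA or TACGTA, a set that reads the same on both strands, was in 21 of 35 windows (60.0%). The same set was in 71.8% of the windows of 3824 genes with a main end past the stop codon. TATATA alone was in 37.1% of small-subunit windows and 45.9% of all windows, and TACATA in 8.57% and 22.2%. AATAAA, searched on the sense strand, was in 9 of 35 (25.7%), against 21.3% of all. A hexamer of the set and AATAAA stood together in 5 windows and neither stood in 10, where overlaps between motifs were allowed. A and T made up a median of 77.0% of the bases in small-subunit windows and 72.0% in all windows. Windows of 44 large-subunit genes lay on the same side of all windows in each of these measures. They held the set in 65.9%, TATATA in 40.9%, TACATA in 13.6% and AATAAA in 29.5%. Their median of A and T was 76.0%. For TACGTA alone, small-subunit windows (8.57%) and large-subunit windows (9.09%) lay on opposite sides of all windows (8.94%). In 7 of the 35 genes one of the 5 hexamers lay within the last 30 nt, and these are shown except RPS14B, which is given with its neighbour.
RPS16A main end, 87 nt past the stop codon, chrXIII:552961-552990, plus strand: taaacacaacagcctttaattTACGTAaaa
RPS21B main end, 132 nt past the stop codon, chrX:156418-156447, minus strand: TACGTAcatgcaacaactacaataacaaaa
RPS6A main end, 158 nt past the stop codon, chrXVI:377133-377162, minus strand: aTATGTAttgtaaacgagagtcggaatgta
RPS15 main end, 90 nt past the stop codon, chrXV:253059-253088, minus strand: ttaggaaAATAAAatttttgtttattggta
RPS29B main end, 169 nt past the stop codon, chrIV:340459-340488, minus strand: tggcgatatAATAAAaaattctagtcacaa
RPS19B main end, 165 nt past the stop codon, chrXIV:61793-61822, minus strand: catcatcaatatagccgaaaccaaAATAAA
In RPS16A, for a head protein whose tail reaches the P site, TACGTA starts 9 nt before the end. In RPS21B, for a protein beside Rps0, it starts 30 nt before the end, and in RPS6A TATGTA starts 29 nt before it. AATAAA starts 23 nt before the end in RPS15, 21 nt in RPS29B and 6 nt in RPS19B. These are matches of letters and say nothing of use by a factor.

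Of the 35 genes, 21 faced a convergent neighbour, whose transcript runs toward them, and 14 were followed by a gene in the same direction. The distance between the coding regions had a median of 313 nt for convergent and 486.5 nt for tandem neighbours. For 15 of the 21, the convergent neighbour had clusters of its own in the table, and in 7 the outermost ends with 5% or more of the reads overlapped. The longest overlap, 181 nt, was between RPS23B and SPN1, and RPS20 with YLF2 followed at 116 nt and RPS27A with RSM22 at 115 nt. RPS14B and RPS22A are neighbours of each other on chromosome X and both encode small-subunit proteins. Their main ends lay 58 nt apart without crossing, and 16 nt separated their outermost ends. Both are shown for that reason, together with the ends of RPS14A, the paralog of RPS14B and the most abundant small-subunit gene of the table.
RPS14B main end, 91 nt past the stop codon, chrX:74673-74702, plus strand: agtttgtttaattAATAAAgccaatataaa
RPS22A main end, 150 nt past the stop codon, chrX:74760-74789, minus strand: atttgtactttaaaactgttcaaaagatta
RPS22A farthest end, 191 nt past the stop codon, chrX:74719-74748, minus strand: atttatctgccgcatttctgcatgcacgaa
RPS14A main end, 103 nt past the stop codon, chrIII:177397-177426, minus strand: cgcccataatcaaatcagctcatacgtcaa
RPS14A second end, 137 nt past the stop codon, chrIII:177363-177392, minus strand: gtAATAAAaaaaagcccttataacctttta
AATAAA starts 17 nt before the end of RPS14B. In RPS14A it lies before the second end, which held 7.78, 7.01 and 7.48% in the deletion libraries, against 6.07, 5.48 and 7.01% in the wild-type libraries. The main end of RPS14A had TATATA 37 nt upstream, outside the bases shown.

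Levels are reads per gene, scaled by TMM to counts per 1000000 reads of the tested genes (CPM). A transcript gives a read only at its 3′ end, so levels can be set side by side between genes without division by length, though reads are not counted molecules. RNA of a whole culture does not tell fewer transcripts per cell from fewer cells that carry them. Small-subunit genes spanned a 129-fold range of mean level around a median of 1833 CPM. RPS14A (YCR031C), which encodes the platform protein that in yeast also binds the RPS14B pre-mRNA, was the highest. It had 15852, 18779.6 and 17759.6 CPM in deletion replicates 1, 2 and 3, against 18108, 14334 and 16415 CPM in wild-type replicates 1, 2 and 3. The groups overlapped, and by the mean over all libraries no other small-subunit gene came within a factor of 2 of it.

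The next 4 genes were RPS20, RPS25A, RPS30B and RPS23B. RPS20 (YHL015W), of the head, had 7859, 7623 and 7407 CPM in the deletion libraries, against 8209.7, 6223 and 7400.0 CPM in the wild-type libraries. RPS25A (YGR027C), whose head protein is known for its part in initiation at viral internal entry sites, had 7401, 6598 and 6690.3 CPM in the deletion libraries, against 6836, 9157 and 7143 CPM in the wild-type libraries. Levels in these libraries crossed between strains, with wild-type replicate 2 lowest for RPS20 and highest for RPS25A. RPS30B, for a small protein near the decoding site, averaged 4609 ± 678 CPM in the deletion and 5347 ± 933 CPM in wild type (SD, n = 3 each). RPS23B, for a protein of the decoding site, averaged 3743 ± 242 CPM in the deletion and 3832 ± 224 CPM in wild type. At the low end stood RPS9A, RPS27A, RPS24B and RPS0B, all of the body and platform. RPS9A had 134, 90.7 and 174 CPM in the deletion libraries, against 155, 135 and 97.7 CPM in the wild-type libraries. RPS27A, for a zinc-binding protein, had 235, 189.5 and 212 CPM in the deletion libraries, against 214, 278 and 243 CPM in the wild-type libraries. Both genes had groups that overlapped. RPS24B averaged 685 ± 27.0 CPM in the deletion and 748 ± 107 CPM in wild type (SD, n = 3 each). RPS0B averaged 799.9 ± 84.4 CPM in the deletion and 704 ± 157 CPM in wild type. The median coefficient of variation between replicates was 6.48% for the deletion libraries and 12% for the wild-type libraries. By place in the subunit, 13 genes of the head had a median level of 2398 CPM (1018 to 7454) and 22 of the body and platform one of 1645 CPM (131 to 16875). The 12 genes without an intron had a median of 2031 CPM and the 23 with one a median of 1833 CPM.

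Other genes lay between these extremes. RPS11B, of the body, had 3611, 3731 and 3686 CPM in the deletion libraries, against 3764, 3585 and 3602 CPM in the wild-type libraries. RPS16A had 3719, 3875 and 3692 CPM in the deletion libraries, against 3775, 2756 and 3519 CPM in the wild-type libraries. In RPS11B the 6 libraries lay close together, while wild-type replicate 2 was the lowest for RPS16A. RPS29B, for a zinc-binding head protein, averaged 2718 ± 255 CPM in the deletion and 2469 ± 144 CPM in wild type (SD, n = 3 each). RPS6A, for the protein known as a phosphorylation target of TORC1 signalling, averaged 2233 ± 138 CPM in the deletion and 2318 ± 156 CPM in wild type. RPS7B, of the body, averaged 2104 ± 133 CPM in the deletion and 2152 ± 140.3 CPM in wild type. All 5 of these genes had groups that overlapped. RPS21B had 1071, 1196 and 1170.4 CPM in the deletion libraries, against 1447, 959 and 1354 CPM in the wild-type libraries, where wild-type replicate 2 was the lowest and the other wild-type libraries the highest of the 6. Without wild-type replicate 2 it had the smallest adjusted p of the small-subunit genes, at 0.241 in edgeR.

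**Figure D2:**
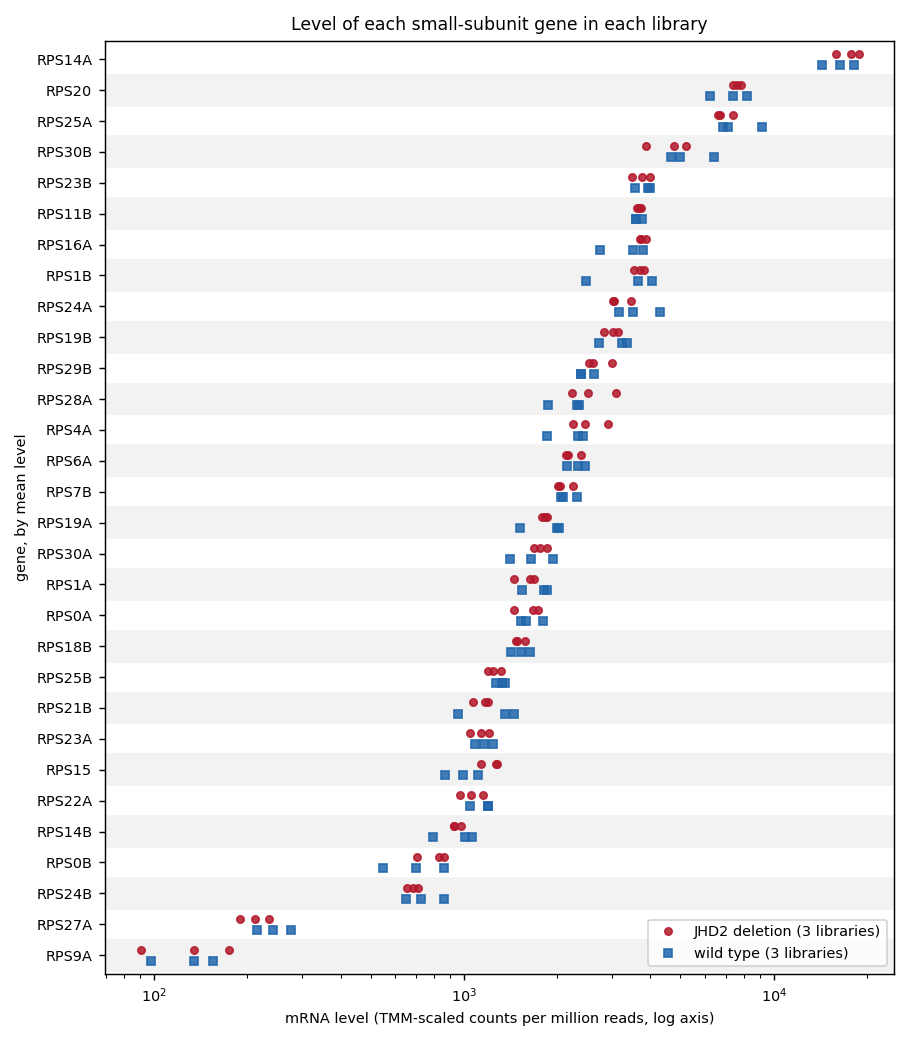
mRNA level of 30 of the 35 genes in TMM-scaled CPM (log x axis), with 3 JHD2 deletion libraries as red circles above 3 wild-type libraries as blue squares. The strains overlap in each row but that of RPS15, from RPS14A at the top to RPS27A and RPS9A at the bottom.

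Within all 10 pairs the same paralog was the higher one in all 6 libraries. The A gene was higher in 5 pairs (among them RPS0, RPS14, RPS24 and RPS25) and the B gene in 5 (among them RPS1, RPS19, RPS23 and RPS30). The higher paralog had a median of 2.62 times the level of the lower, and 2 times or more in 8 pairs. RPS14 was the most unequal, RPS14A standing 17.7-fold above RPS14B, with an A share of 94.47, 95.04 and 95.01% in the deletion libraries, against 94.71, 94.75 and 93.91% in the wild-type libraries. In RPS25 the A share was 86.1, 84.1 and 83.5% in the deletion libraries, against 83.7, 87.8 and 84.1% in the wild-type libraries. RPS24, a body protein, had an A share of 81.0, 81.7 and 84.0% in the deletion libraries, against 81.3, 83.2 and 84.3% in the wild-type libraries. The shares of these pairs differed by a few points among the 6 libraries.

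RPS19 and RPS1 were among the more equal pairs. For RPS19, whose human counterpart is mutated in Diamond-Blackfan anaemia, the A share was 38.7, 37.1 and 37.6% in the deletion libraries, against 38.5, 35.6 and 37.1% in the wild-type libraries. The shared stretch given above lies in the coding region of RPS19B, and whether it affects these shares was not tested. For RPS1 it was 31.5, 27.5 and 31.3% in the deletion libraries, against 29.6, 42.4 and 31.5% in the wild-type libraries, with wild-type replicate 2 the highest of the 6. The 2 strains overlapped in A share in all 10 pairs, 0 of 10 being apart. Of all 23 pairs of genes named A and B, 8.70% (RPL17 and RPL18) were apart. The largest mean differences, deletion minus wild type, were -4.42 points in RPS1 and 3.81 points in RPS30. With 3 libraries a strain, an exact two-sided permutation test of a share cannot give a p below 0.10. Leaving out deletion replicate 1, wild-type replicate 1 or wild-type replicate 2 set 1 pair apart each time, namely RPS14, RPS1 and RPS23 in that order. Their mean differences were then 0.57, -6.85 and 1.11 points. Groups of 2 and 3 libraries fall apart more readily than groups of 3. The share over all pairs with a library left out is not given here, so nothing is drawn from these separations.

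Summed over both paralogs, levels still differed between pairs. RPS14 summed to 18410.2 ± 1510.0 CPM in the deletion and 17242 ± 2006 CPM in wild type (SD, n = 3 each). RPS25 followed with 8151 ± 395 CPM in the deletion and 9030.0 ± 1218 CPM in wild type. RPS0 was near the low end, at 2417 ± 159 CPM in the deletion and 2339.6 ± 50.8 CPM in wild type.

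**Figure D3:**
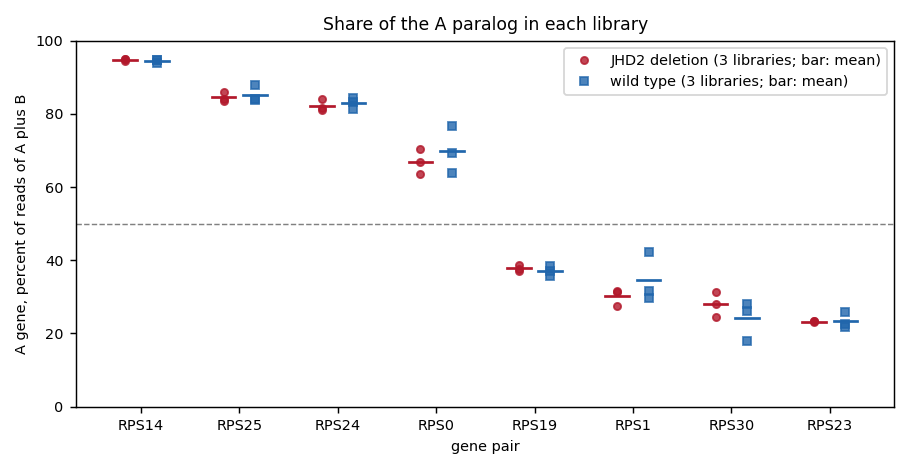
Reads of the A gene as a percent of the reads of A plus B (y axis) for 8 of the 10 pairs with both genes in the table, in JHD2 deletion libraries (red circles, left) and wild-type libraries (blue squares, right), with bars at the means and a dashed line at equal shares. Pairs run from RPS14 at 94.8% in the deletion to RPS23 at 23.2%, and the strains overlap in each pair drawn.

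Deletion of JHD2 was compared with wild type to ask whether small-subunit transcripts changed in level. None did by the test used. In edgeR's quasi-likelihood test with Benjamini-Hochberg adjustment, 0 of 35 genes passed a threshold of 0.05, where 1.31% of all 3366 tested genes did (36 higher and 8 lower in the deletion). At an unadjusted p under 0.05 there was 1 gene, RPS15 (background 9.83%). The Wald test of DESeq2 found 0 genes before adjustment (background 4.16%) and 0 after it (background 0.573%). The log2 fold changes of deletion over wild type ran from -0.21 in RPS30B to 0.30 in RPS15, with a median of -0.018, against -0.00026 over all tested genes. They were above 0 in 14 of 35 genes (background 50.0%). The 95% interval of each gene reached 0.23 to 0.45 to either side of its value and lay inside a 1.5-fold change in either direction in all 35. A gene that missed the threshold was thus measured to within that range and not shown to be equal.

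RPS15 (YOL040C), whose head protein reaches toward the decoding site, was the only gene with groups apart, where 15.6% of all genes had groups apart. It had 1272, 1281 and 1139 CPM in the deletion libraries, against 996, 872 and 1115 CPM in the wild-type libraries. Its log2 fold change was 0.30 ± 0.13 (SE; 95% interval 0.03 to 0.58; adjusted p = 0.397) in edgeR. RPS28A, for a small protein at the mRNA exit, had 3105, 2512 and 2236 CPM in the deletion libraries, against 2350.3, 1870.4 and 2313 CPM in the wild-type libraries. The highest value was that of deletion replicate 1, the groups overlapped, and the log2 fold change was 0.26 ± 0.13 (SE; 95% interval -0.0041 to 0.53; adjusted p = 0.518). RPS4A, of the body, came next at 0.20, with means of 2539 ± 338 CPM in the deletion and 2201 ± 301 CPM in wild type.

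At the other end, RPS30B (YOR182C) had 5199, 4759 and 3868 CPM in the deletion libraries, against 4646, 6405 and 4989 CPM in the wild-type libraries, and its log2 fold change was -0.21 ± 0.13 (SE; 95% interval -0.47 to 0.05; adjusted p = 0.603) in edgeR. RPS24A (YER074W) had 3029, 3059 and 3463 CPM in the deletion libraries, against 3169.9, 4292 and 3508 CPM in the wild-type libraries, giving -0.20. RPS27A stood at -0.19 and RPS25A at -0.16. Wild-type replicate 2 held the highest value of the 6 libraries in all 4 of these genes. Without it, the 4 log2 fold changes came to -0.075 for RPS30B, -0.079 for RPS24A, -0.11 for RPS27A and -0.031 for RPS25A. The same omission left RPS15 at 0.21, RPS28A at 0.15 and RPS4A at 0.085, genes where wild-type replicate 2 was the lowest wild-type library. All these genes were picked for their fold changes over the 6 libraries. Leaving out their extreme wild-type library therefore moves them toward 0 by construction. The part of wild-type replicate 2 in these differences was not tested. Without deletion replicate 1, RPS28A stood at 0.12 and RPS4A at 0.093, and without deletion replicate 3 RPS30B stood at -0.10. Other omissions left values farther from 0. Without wild-type replicate 1, RPS30B, RPS24A, RPS27A and RPS25A stood at -0.31, -0.30, -0.30 and -0.25. RPS28A stood at 0.36 and RPS4A at 0.28 without deletion replicate 3, and RPS15 at 0.39 without wild-type replicate 3.

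**Figure D4:**
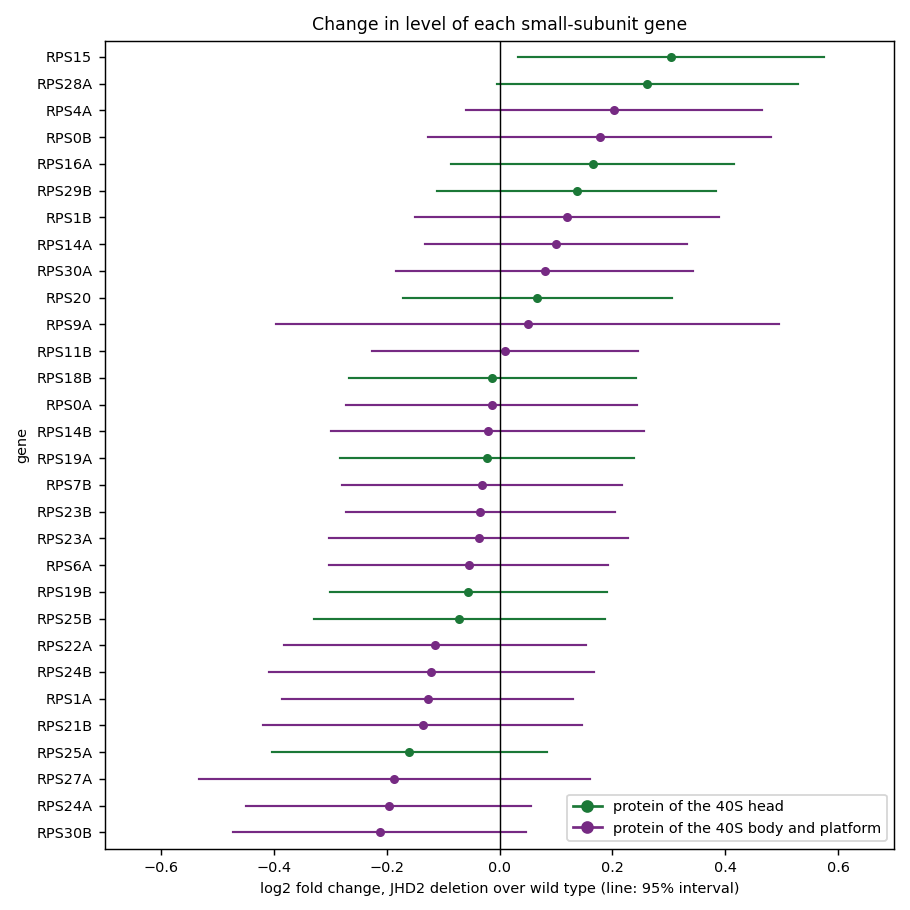
log2 fold change of 30 of the 35 genes, JHD2 deletion over wild type (x axis), with lines for the 95% interval of the edgeR fit, in green for proteins of the head and purple for those of the body and platform. The points run from 0.30 in RPS15 to -0.21 in RPS30B, and each line but that of RPS15 crosses 0.

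By place in the 40S subunit, 0 of 13 head genes and 0 of 22 body and platform genes passed. Median log2 fold changes were 0.0043 (7 of 13 above 0) and -0.026 (7 of 22 above 0). Genes of the large subunit, 43 of them tested, had 0 calls and a median of -0.031, with 4 whose groups were apart (background 15.6%). The smallest p among them were those of RPL34B, at -0.38 ± 0.13 (SE, edgeR adjusted p = 0.188), and RPL17A, at 0.30 ± 0.14 (adjusted p = 0.457). Factors that assemble the 40S subunit had 0 calls among 14, with a median of -0.064 and 0 whose groups were apart. TSR2 stood at -0.41 ± 0.19 (SE, edgeR adjusted p = 0.442) and DIM1 at -0.37 ± 0.27 (SE, edgeR adjusted p = 0.688). Tsr2 is the chaperone of Rps26, and Dim1 methylates the pre-rRNA of the small subunit. Regulators of ribosomal protein genes had 0 calls among 7 and a median of 0.048, with 2 whose groups were apart (background 15.6%). Among them TOD6, a repressor of ribosome biogenesis genes, averaged 205 ± 13.0 CPM in the deletion and 129 ± 29.0 CPM in wild type (SD, n = 3 each). Its log2 fold change was 0.63 ± 0.19 (SE, edgeR adjusted p = 0.105). SCH9, the kinase below TORC1, stood at 0.23 ± 0.19 (SE, edgeR adjusted p = 0.725).

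Choice among 3′ ends was compared next. In the gene-level test of diffSpliceDGE (edgeR), an F test for unequal change among the ends of 1 gene, 0 of 35 genes passed after adjustment, and 0.210% of all 2380 tested genes did. At an unadjusted p under 0.05 there was 1 small-subunit gene (background 5.67%), and limma-voom with diffSplice gave 0 after adjustment (background 0.0840%) and 2 before it (background 5.55%). Of 86 single clusters, 0 passed after adjustment, where 0.0168% of all 5952 did, and 1 had an unadjusted p under 0.05 (background 2.15%). Shares of the gene's reads differed by less than 5 points between strains in 81 of the 86 clusters, the other 5 being in RPS9A, RPS19B, RPS25A and RPS30B. The read-weighted mean 3′ end was later in the deletion in 14 of 35 genes (background 44.1%) and the strains were apart in 2, RPS18B and RPS30B (background 10.7%). The median shift was -0.33 nt, deletion minus wild type, and 0.077 nt without deletion replicate 1.

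Ends of the genes with the smallest p for site choice are shown, and those of RPS25A, whose use varied most between deletion libraries.
RPS28A main end, 133 nt past the stop codon, chrXV:648671-648700, minus strand: aatacaataatactaataactctattgtaa
RPS28A second end, 170 nt past the stop codon, chrXV:648634-648663, minus strand: tatattcactaattatttaggtgcgaaaaa
RPS30B first end, 70 nt past the stop codon, chrXV:678121-678150, minus strand: taattaaacaaaaatattataattaggaaa
RPS18B main end, 192 nt past the stop codon, chrXIII:222795-222824, minus strand: atataatataattaagttttatacggtaaa
RPS18B second end, 228 nt past the stop codon, chrXIII:222759-222788, minus strand: taacatcactcaaccggggtgagaaagtac
RPS25A first end, 64 nt past the stop codon, chrVII:534068-534097, minus strand: tattttcaataatattttTATGTAtgttta
RPS25A second end, 91 nt past the stop codon, chrVII:534041-534070, minus strand: ttatttgcacgtcacgtttgtgttatggaa
RPS25A main end, 155 nt past the stop codon, chrVII:533977-534006, minus strand: aaaaaaaaaaggaacattaacggctgaaaa
In these windows a hexamer was present in the first end of RPS25A alone, where TATGTA starts 12 nt before the end. The second end of RPS28A (YOR167C) took 4.55, 5.63 and 7.71% in the deletion libraries, against 7.51, 9.51 and 7.67% in the wild-type libraries. Deletion replicate 3 lay among the wild-type values, and the gene-level p was 0.0293 before and 0.781 after adjustment in edgeR. The first end of RPS30B took 31.6, 34.1 and 37.0% in the deletion libraries, against 29.3, 23.0 and 31.2% in the wild-type libraries, the groups being apart by a fraction of a point. Counted past the stop codon, its mean end lay at 99.4, 98.3 and 97.1 nt in the deletion libraries, against 100.4, 103 and 99.6 nt in the wild-type libraries (adjusted p = 0.876 in edgeR). RPS18B (YML026C), for a head protein that contacts the large subunit, took its second end for 16.1, 13.6 and 13.4% in the deletion libraries, against 17.2, 19.1 and 16.8% in the wild-type libraries. Its strains were apart as well, with an adjusted p of 0.918 in edgeR.

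The first end of RPS25A was read 884, 423 and 278 times in deletion replicates 1, 2 and 3, against 357, 270 and 369 times in wild-type replicates 1, 2 and 3. As a share of the gene's reads this was 28.6, 17.1 and 8.73% in the deletion libraries, against 14.2, 12.8 and 18.7% in the wild-type libraries. The deletion libraries held both the highest and the lowest of the 6 values, and the gene had an adjusted p of 0.97 in edgeR. RPS1B showed a like spread in wild type: its end at 70 nt held 62.2, 55.4 and 52.5% in the deletion libraries, against 57.4, 41.1 and 62.7% in the wild-type libraries. In wild-type replicate 2 the end at 117 nt was the main one instead. RPS19B likewise had 1 library apart, its farthest end holding 23.3, 18.9 and 20.7% in the deletion libraries, against 22.2, 35.6 and 21.8% in the wild-type libraries, with wild-type replicate 2 again outside the other 5 libraries.

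**Figure D5:**
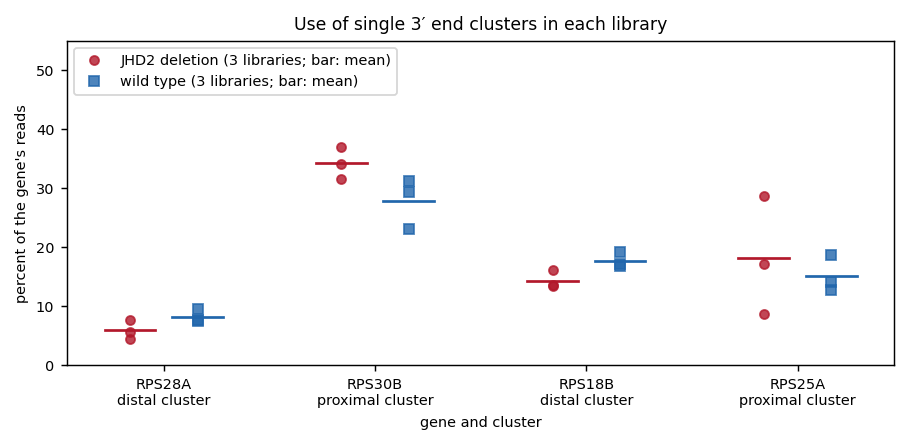
Percent of the gene's reads at 1 cluster (y axis) of RPS28A, RPS30B, RPS18B and RPS25A, in 3 JHD2 deletion libraries (red circles, left) and 3 wild-type libraries (blue squares, right), with bars at the means. Strains are apart for RPS30B (34.2% in the deletion against 27.9% in wild type) and RPS18B (14.4% in the deletion against 17.7% in wild type). Deletion points of RPS25A run from 8.73 to 28.6%.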

How the data were processed

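The submitters' 3′READS libraries were trimmed and single-end reads longer than 15 bp were aligned to sacCer3 with Bowtie2 in local mode, per the series' design text (the sources used here name no Bowtie2 version). Alignments with mapping quality of 10 or more and 2 or more unaligned T bases were kept, their last positions were clustered within 24 bp, and clusters under 3 reads or 5% of a gene's reads were dropped, per the same text. The deposited values are raw read counts per cluster and library. Deposited positions were found to count from 0 (0 of 5414 plus-strand clusters past a stop codon were then followed by a genomic A, and 0 of 5382 on the minus strand), so 1 was added. Cleavage inside a genomic run of A cannot be placed.

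Reads were summed per gene and tested with edgeR 4.0.16 in R 4.3.3 (quasi-likelihood test with TMM factors and filterByExpr, strain being the single term), over all 3366 genes that passed. All 35 small-subunit genes passed the filter. Site choice was tested with diffSpliceDGE on clusters summing to at least 20 reads, and p-values were adjusted by Benjamini-Hochberg over the whole table. Standard errors and 95% intervals were derived from each F statistic. Alternatives were DESeq2 1.42.0, limma 3.58.1, other scalings, cluster minimums of 10 and 50, the replicate block and leaving out each library. The tests were first tested on simulated counts. No pair of libraries agreed within sampling noise (chi-square per degree of freedom 1.41 or more). Alignments used Biopython 1.88 and BLAST 2.17.0, with similar stretches counted from 40 nt and 90% identity.

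Genes and lists were chosen with earlier results of these data known. Named with values were the 4 highest and 4 lowest fold changes, the 4 smallest p for site choice, the 5 highest and 5 lowest levels, the 3 most and 3 least equal pairs, the genes with the most clusters and widest spans, and the 2 smallest p of each comparison list. Some of these single-gene results are not reported here, and the figures leave those genes out. Values of RPS1B, RPS19B, RPS11B, RPS16A, RPS29B, RPS6A, RPS7B, RPS21B, RPS25B and the single ends of RPS25A were chosen after they were seen.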

Additional observations from a re-analysis of the deposited data

How the results depend on the processing

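Counts of small-subunit genes called for level, for site choice and for single clusters were 0 under every alternative run, and the named log2 fold changes kept their direction in all of theirs. The number of paralog pairs whose strains did not overlap ranged from 0 to 1 when 1 library was left out, without a share over all pairs beside it. The median log2 fold change ran from -0.034 (DESeq2 Wald test) to 0.00092 (without wild-type replicate 3). With the replicate block, 0 of 35 small-subunit genes were called for level, with a median log2 fold change of -0.014, and 0 of 35 for site choice, and over all genes 28 were called higher and 5 lower, against 36 and 8 without it. Same-numbered libraries of the strains did not deviate together (correlations of -0.091, -0.029 and -0.015). With 3 libraries a strain this check cannot exclude that the numbers pair them, and the labels do not say. The cause of the difference in calls was not tested. Over all genes, the DESeq2 Wald test called 19 higher and 4 lower, and calls for site choice ranged from 0 to 5. Depth limits the rarest gene, RPS9A, to 48.0 reads per library, and its ends and fold change are the least precise of the 35.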
